A study of Mus musculus with 13 samples.

Results

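Mouse B16 melanoma cells lacking both Tdg and Trp53 (Tdg Trp53 DKO, below DKO) were compared with B16 cells lacking Trp53 alone (Trp53 KO), to ask how transposon and piRNA locus RNA differs with Tdg when Trp53 is absent. Both groups share the loss of Trp53. The comparison took 4 of the study's 13 libraries, 2 per genotype, chosen by the genotype in their labels. B16 wild type (WT) and Tdg KO libraries, 2 each, entered the statistical fit, and 5 libraries of the KP lung adenocarcinoma line (2 WT, 3 Tdg KO) are given as side values. All cells were mouse tumour cells grown in DMEM with fetal bovine serum. The labels do not say how the knockouts were made, or whether the libraries of a genotype came from separate cultures, clones or pools, so the p-values measure only the spread between these libraries. The tables hold repeats and piRNA loci and no gene expression, so neither the genotypes nor the melanoma origin was checked against marker genes.

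Tdg encodes thymine DNA glycosylase, which removes thymine mispaired with guanine and oxidised forms of methylcytosine, and so takes part in base excision repair and active DNA demethylation. Trp53 encodes p53, a transcription factor activated by DNA damage. Mouse LTR retrotransposons, such as intracisternal A particles (IAP), consist of an internal protein-coding sequence between 2 long terminal repeats (LTRs) that carry the promoter. Many copies survive only as an LTR. LINE-1 elements carry an internal promoter and their own reverse transcriptase. B1 SINEs derive from 7SL RNA and B2 SINEs from a tRNA, and both can be transcribed by RNA polymerase III or lie inside other transcripts. piRNA loci are intervals known for making Piwi-interacting RNAs in the germline. They are named here for a host gene (pi-Phf20.2) or for a chromosome band (14-qA3-284.2), and they hold repeat copies.

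The measurement was the deposited mean signal, taken as read coverage per base of a repeat consensus sequence or piRNA locus, from directional libraries of rRNA-depleted RNA. Of 889 entries with signal, 536 repeats and 353 piRNA loci, each strand was treated as a feature. A total of 1246 features (646 sense, 600 antisense) reached a mean signal of at least 0.1 over the 8 B16 libraries and were tested with limma on log2(signal + 0.1). On that scale the added 0.1 shrinks changes between low values, while a 0 in 1 library of a group can enlarge them. The LTR entry MTC antisense, at 0 in Trp53 KO library 1, had a log2 change of 6.02 but a 17.3-fold ratio of means. Repeat signal other than 7SL and its relative PB1 summed to 27542 and 20503 for Trp53 KO and to 45763 and 29846 for DKO. Since the signal was not scaled to library size, and fewer cells of a kind cannot be told apart from less RNA per cell in bulk RNA, levels across libraries are read beside 3 rescaled fits (median-ratio scaling, median centring and quantile normalization). Long repeats held signal equal to about 463731 and 314766 fragments in Trp53 KO and 382120 and 341243 in DKO.

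DKO libraries had higher signal than Trp53 KO libraries across most repeats and piRNA loci. Of the 1246 features, 368 rose (29.5%) and 19 fell (1.52%) at a Benjamini-Hochberg adjusted p of 0.05. The smallest adjusted p was 0.0103. Both DKO libraries lay above both Trp53 KO libraries at 858 features (68.9%) and below them at 57 (4.57%). Both DKO libraries also exceeded all 6 other B16 libraries at 592 features (47.5%). They were the lowest 2 of the 8 at 24 (1.93%). By strand, 26.2% of sense features rose and 2.63% fell, and 33.2% of antisense features rose and 0.333% fell. Both DKO libraries lay above Trp53 KO at 63.2% of sense and 75% of antisense features, below at 7.12% and 1.83%, and above all other B16 libraries at 45.8% and 49.3%. The median log2 change was 1.67, and 1.16 with the 227 features at 0 in both Trp53 KO libraries set to a lower bound, which is based on a floor of 3 fragments per library. Median-ratio scaling lowered the median change to 0.59 and median centring to -0.38, and rises and falls then numbered 77 and 49, and 26 and 110. Only 23 rises (1.85%) passed in the fit of deposited values and in all 3 rescaled fits. All 19 falls did, but falls against a general rise are deepened by such scaling. Of the 368 rises, 57 reached the mean of 0.1 through the DKO libraries alone, as did 4 of the 23, and 8 of the 19 falls reached it through the Trp53 KO libraries alone. Such features had to differ, and 311 rises, 19 of the 23 and 11 falls remain without them.

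The calls rested heavily on single libraries. Without Trp53 KO library 1 in the fit, 8 features rose and 0 fell, with 452 and 14 at an unadjusted p under 0.05 by limma. Without Trp53 KO library 2, 14 rose and 0 fell, with 420 and 26 unadjusted. Without DKO library 1, 133 rose and 7 fell, and without DKO library 2 the counts were 358 and 9. DKO library 1 stood apart from DKO library 2. It had 7SL sense signal (entry P7SL_Cpo) of 1198218 against 202366 and antisense signal of 422 against 8.30, PB1 sense signal of 1157 against 16.6, and higher signal at 864 of the 1246 features (median log2 difference 0.58). With only the 2 genotypes in the fit, 0 features passed by limma, with a smallest adjusted p of 0.061 and 548 higher and 32 lower features at an unadjusted p under 0.05. Of the 58 rises and 11 falls named in the text, 23 and 11 also passed with median-ratio factors and 20 and 11 with median centring. Leaving out Trp53 KO library 1 kept 2 and 0 of them, library 2 of that genotype 8 and 0, DKO library 1 23 and 1, and DKO library 2 37 and 2. Of all 111 features named, the sign of the change turned at 42 under median centring and at 31 under median-ratio scaling. Rises and falls below are those of deposited values in the fit to all 8 libraries.

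**Figure D1:**
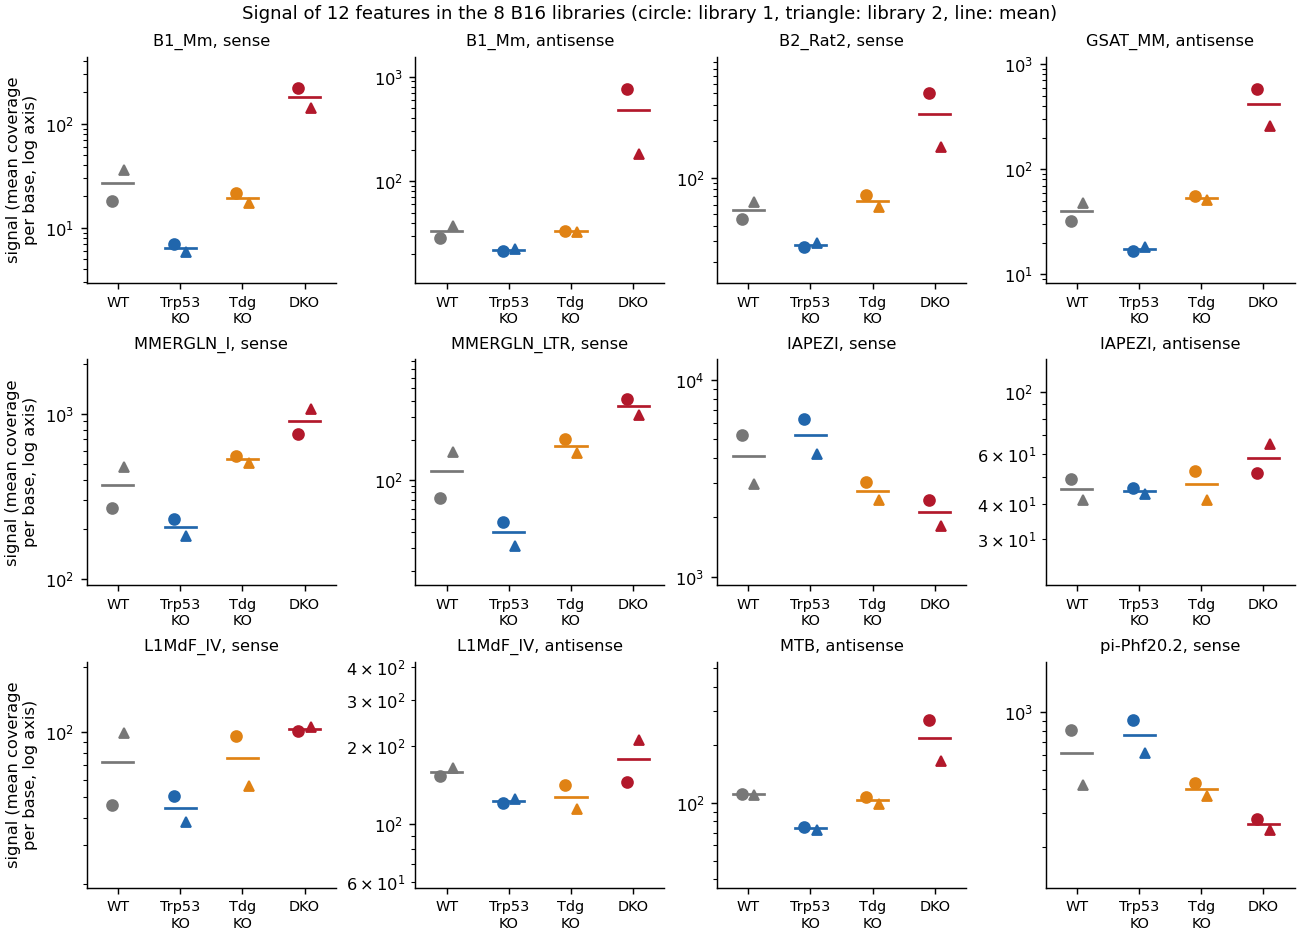
Signal of 12 features, each in its own panel, in the 8 B16 libraries (vertical axis: mean coverage per base, log scale; circle library 1, triangle library 2, line the mean of 2). The DKO points are the highest 2 of 8 for B1_Mm, B2_Rat2, GSAT_MM antisense and both GLN features, and the lowest 2 of 8 for IAPEZI sense and pi-Phf20.2 sense.

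The size of the change depended on how strongly a feature was covered. Among repeat features the median log2 change was 1.90 at a mean signal of 1 to 10 (333 features), 1.34 at 10 to 100 (205 features) and 0.95 at 100 or more (54 features). Below a mean of 1 it was 1.99 over 246 features, but 169 of these were at 0 in a whole group, and with those at their lower bounds the median was 0. Among piRNA locus features the median was 2.37 at 1 to 10 (161 features), 0.57 at 10 to 100 (51 features) and -1.30 at 100 or more, where 0 of 11 features lay above 0 and 5 fell. Loci named with the same number or host gene may overlap and share reads, so these features do not count as separate measurements. Weakly covered and strongly covered piRNA loci thus differed in the sign of their median change. The same held after scaling to summed repeat signal (1.74 at 1 to 10 and -1.94 at 100 or more) and after median centring (0.32 and -3.35). Most of the 11 best-covered features, and all 5 falls among them, ran parallel to the sense signal of the IAP entry IAPEZI, as described below. The parts of coverage and of this likeness in the difference were not tested.

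**Figure D2:**
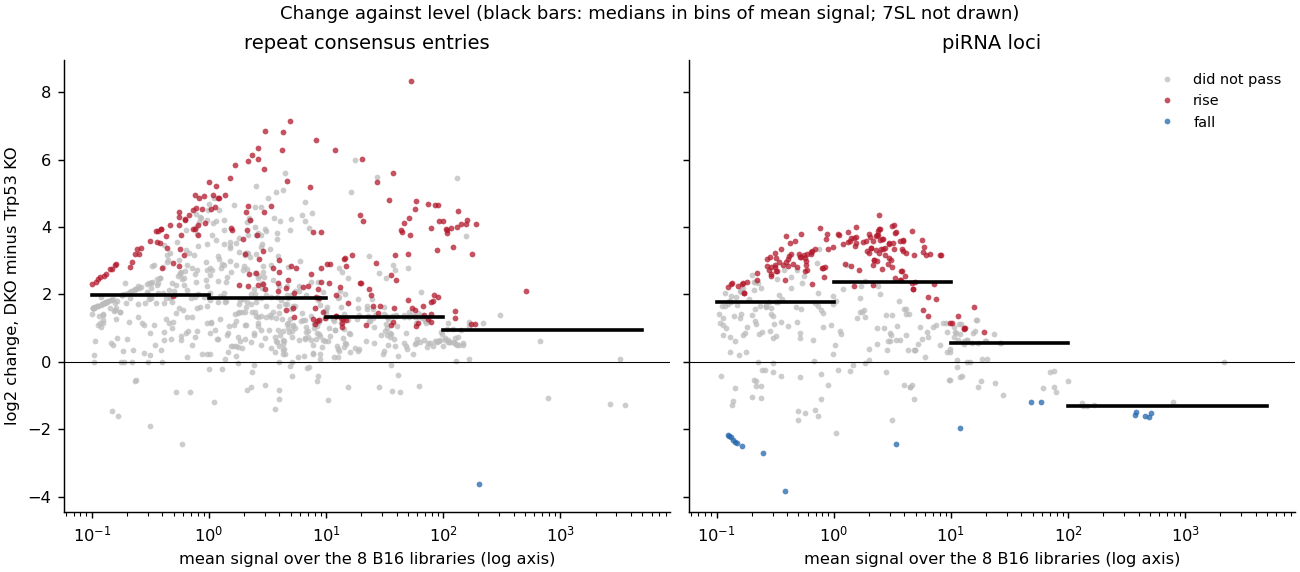
Log2 change of each tested feature (DKO minus Trp53 KO) against its mean signal over the 8 B16 libraries (log axis), with repeats on the left and piRNA loci on the right; red points passed as rises, blue as falls, and black bars are medians by bin. The bars step down from 1.90 to 0.95 in repeats with a mean signal of 1 or more, and reach -1.30 in the best-covered piRNA loci.

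More repeat features had signal in DKO. Signal above 0 was present at 577 and 566 repeat features of the Trp53 KO libraries and 858 and 784 of the DKO libraries, against 598 to 701 in WT and Tdg KO. Of 838 tested repeat features, 100 were present in both DKO libraries and in neither Trp53 KO library, 45 sense and 55 antisense, and 0 showed the reverse. The same counts for Tdg KO against WT were 12 and 7. At piRNA loci, 12 features were present in DKO only and 9 in Trp53 KO only. A feature can reach the filter through the group where it is present, and detection varies with depth, so these counts are a description.

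Antisense RNA made up a larger part of repeat signal in DKO. It was 20.3% and 27.5% in the Trp53 KO libraries, 41.2% in both DKO libraries, 27.2% and 34.2% in WT, and 31.3% and 32.0% in Tdg KO, so both DKO libraries were the highest of 8. In sum, antisense repeat signal went from 5591 and 5638 to 18860 and 12290, a 2.77-fold difference of means (exact two-sided permutation test p = 0.333, the smallest that 2 against 2 allows). Sense repeat signal went from 21951 and 14864 to 26903 and 17556, and its groups overlapped. The antisense share of DKO stayed the highest of 8 without the B1 and B2 SINEs, at 35.2% and 40.7% against 19.7% and 26.6% in Trp53 KO. It was not the highest without the IAP elements related to IAPEZI, at 49.0% and 48.5% against 39.4% and 49.7%. These strongly sense-biased elements held 50.4% and 46.7% of repeat signal in Trp53 KO and 17.6% and 17.5% in DKO.

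**Figure D3:**
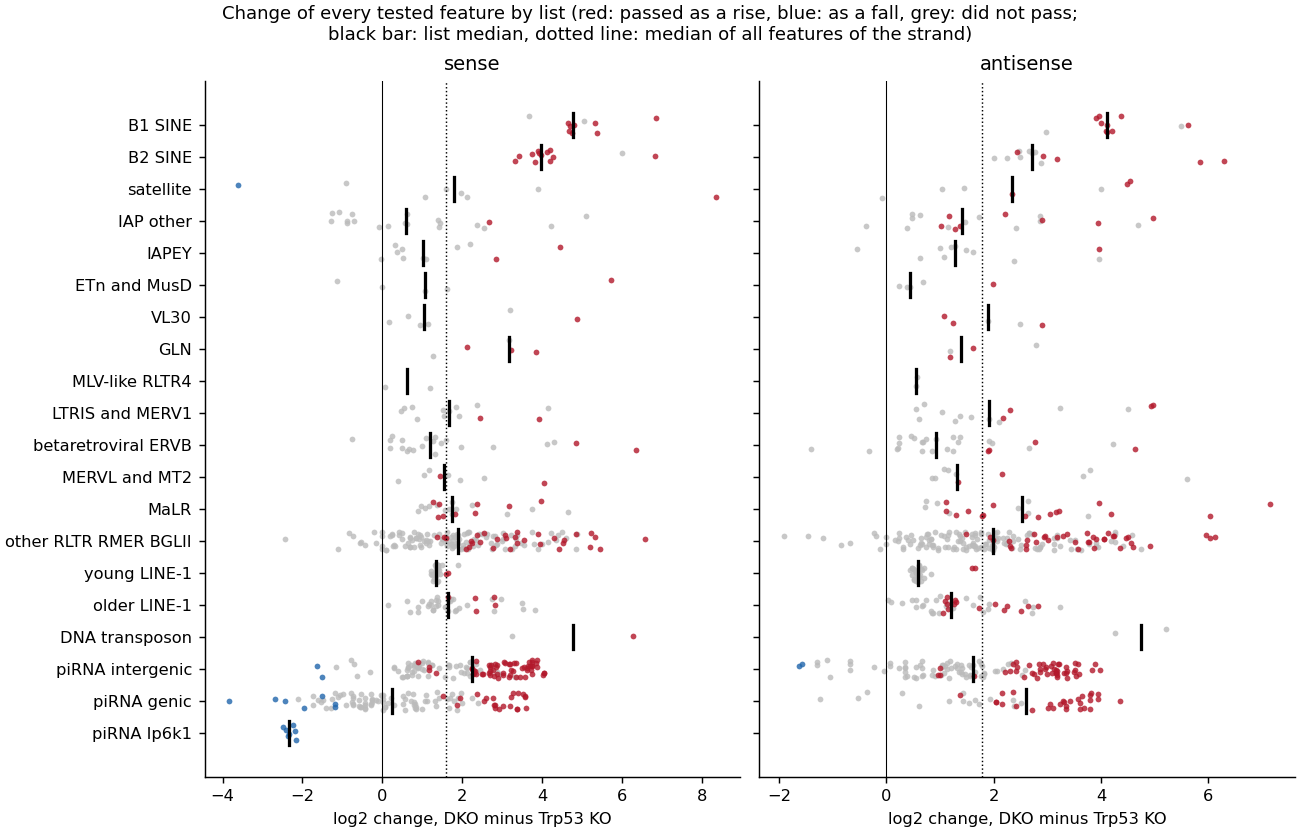
Log2 change (DKO minus Trp53 KO) of every tested feature in 20 lists of repeats and piRNA loci, sense on the left and antisense on the right; red points passed as rises, blue as falls, black bars are list medians and the dotted line is the median of all features of the strand (1.61 sense, 1.78 antisense). B1 and B2 SINEs lie to the right of the dotted line in sense, and the 28 young LINE-1 features form narrow groups on both strands.

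B1 SINEs rose on both strands. The mouse B1 consensus B1_Mm had sense signal of 6.91 and 5.90 in Trp53 KO, 219 and 141 in DKO, 18.0 and 36.0 in WT and 21.5 and 17.5 in Tdg KO. Its antisense signal was 21.2 and 22.3 in Trp53 KO, 769 and 184 in DKO, 28.7 and 37.4 in WT and 33.5 and 32.6 in Tdg KO. On both strands the DKO libraries were the highest and the Trp53 KO libraries the lowest. The sense signal of B1_Mm in Trp53 KO lay around its floor of 6.10 for 3 fragments. The log2 change was 4.76 in sense (SE 0.41, adjusted p = 0.0103) and 4.1 in antisense (SE 0.63, adjusted p = 0.0163), and both passed in all 3 rescaled fits. Of 10 B1 entries in sense, 8 rose, and of 11 in antisense, 9 rose, against 26.2% and 33.2% of all features of those strands. At all B1 features both DKO libraries exceeded the other 6, against 45.8% of all sense and 49.3% of all antisense features. The median log2 changes of B1 were 4.78 and 4.1.

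Other B1 entries were higher in DKO too. B1_Mus1, the best-covered B1 entry, rose from 4.97 and 21.9 to 384 and 188 in sense and from 28.2 and 30.5 to 1061 and 241 in antisense. B1_Mus2 rose on both strands (log2 changes 4.66 and 4.21), and so did the entries B1_Rn (4.70) and B1 (4.79) in sense. Larger changes were seen at the weaker B1_Mur entries. B1_Mur2 antisense rose from 4.30 and 0.97 to 219 and 51.5 (log2 change 5.62, SE 0.94, adjusted p = 0.0163), and B1_Mur4 sense from 3.5 and 1.31 to 92.4 and 88.0 (5.33, adjusted p = 0.0185). B1_Mur1 antisense and B1_Mur3 sense did not pass, with log2 changes of 5.49 (adjusted p = 0.0512) and 5.05 (adjusted p = 0.0724). In Trp53 KO each B1_Mur entry named here lay below its floor of 3 fragments. So did the entry B1 in sense, at 5.13 and 2.90 against a floor of 6.64. B1_Mus1, B1_Mus2 and B1_Rn sense lay below theirs in Trp53 KO library 1 only, at 4.97, 5.01 and 4.98 against 6.06, 6.10 and 6.06. The B1 changes in sense thus rest on few fragments in Trp53 KO.

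The sum over B1 entries shows where the strands differ. In sense it was 35.5 and 67.2 in Trp53 KO against 1598 and 931 in DKO. In antisense it was 155 and 172 in Trp53 KO against 5880 and 1390 in DKO, so DKO library 1 stood further from library 2 in antisense. All 11 B1 features in antisense and all 13 B2 features on each strand were higher in DKO library 1 than in DKO library 2. Without DKO library 1, 3 sense and 7 antisense B1 features rose, with medians of 4.47 and 3.04. Without Trp53 KO library 1, 3 and 0 rose, and without Trp53 KO library 2, 5 and 0. The entries are similar in sequence and may share reads, so they do not count as separate measurements.

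B2 SINEs rose mainly in sense. B2_Rat2 sense signal was 26.9 and 29.1 in Trp53 KO, 498 and 181 in DKO, 45.6 and 63.0 in WT and 71.6 and 57.5 in Tdg KO. B2_Rat4, the best-covered B2 entry in antisense, had 11 and 26.3 in Trp53 KO against 214 and 64.1 in DKO, without passing (adjusted p = 0.0502). Its sense signal rose from 12.5 and 27.6 to 466 and 187, and that of B2_Rat1 from 13.5 and 22.9 to 422 and 173, and both passed in all 3 rescaled fits, as did B2_Rat2. B2_Mm1a antisense rose from 0 and 1.52 to 43.1 and 22.9 (log2 change 6.29, SE 1.26, adjusted p = 0.0197). B2_RnY sense was 0 and 4.08 in Trp53 KO against 76.7 and 22.3 in DKO and did not pass (log2 change 6.0, adjusted p = 0.0552). Of 13 B2 entries, 12 rose in sense (92.3%) and 5 in antisense (38.5%), against 26.2% and 33.2% of all features of those strands. Their medians were 3.98 and 2.71. After median-ratio scaling 8 and 1 rose, with medians of 2.53 and 1.26. Without DKO library 1, 5 sense and 1 antisense features rose, and without either Trp53 KO library 0 rose in sense. As a share of repeat signal, both strands together, B1 went from 0.69% and 1.17% in Trp53 KO up to 16.3% and 7.78% in DKO, and B2 from 0.73% and 1.93% to 11.6% and 6.16%.

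GLN elements, a family of endogenous gammaretroviruses, rose in sense at both the internal sequence and the LTR. MMERGLN_I, the internal entry, had sense signal of 232 and 183 in Trp53 KO, 751 and 1067 in DKO, 270 and 476 in WT and 557 and 507 in Tdg KO. MMERGLN_LTR had 47.8 and 31.2 in Trp53 KO, 414 and 311 in DKO, 72.0 and 163 in WT and 206 and 159 in Tdg KO. The DKO libraries were the highest 2 of 8 at both entries, and the Trp53 KO libraries the lowest 2. The log2 change was 2.12 (SE 0.36, adjusted p = 0.0163) for the internal entry and 3.21 (SE 0.45, adjusted p = 0.0154) for the LTR. After median-ratio scaling these were 0.66 and 1.76, and after median centring 0.07 and 1.16. RLTR1B_MM, an LTR entry placed in the same list, had sense signal of 12 and 4.13 in Trp53 KO against 120 and 89.1 in DKO. In antisense, where it was the best-covered entry of the list, its signal of 46.7 and 47.4 in Trp53 KO rose to 111 and 103 in DKO (a log2 change of 1.18, adjusted p = 0.0216).

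Summed GLN sense signal was 292 and 219 in Trp53 KO against 1286 and 1469 in DKO, a 5.40-fold difference of means (exact permutation p = 0.333). As a share of repeat signal, both strands together, GLN went from 1.29% and 1.32% to 3.13% and 5.42%. Of 5 GLN features in sense 3 rose (60%), and of 4 in antisense 2 rose (50%), against 26.2% and 33.2% of all features. MMERGLN_I antisense, at 4.76 and 4.32 in Trp53 KO against 11.8 and 16.8 in DKO, was among them (log2 change 1.61, adjusted p = 0.021). The antisense part of GLN signal was 17.7% and 19.5% in Trp53 KO against 10.2% and 9.14% in DKO, the opposite direction to repeats as a whole. Unlike most B1 and B2 features, MMERGLN_I sense was higher in DKO library 2 than in library 1. Of the GLN sense features, 1 and 0 passed when Trp53 KO library 1 or 2 was left out, and 1 and 3 when DKO library 1 or 2 was.

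The gammaretroviral element RLTR4, related to murine leukemia virus, had no rise on either strand. RLTR4I_MM, its internal entry, had sense signal of 4706 and 2541 in Trp53 KO against 4487 and 2950 in DKO. The groups overlapped, and the log2 change was 0.07 (SE 0.43, adjusted p = 0.888). Its LTR entry RLTR4_MM had 121 and 82.8 in Trp53 KO against 266 and 195 in DKO, and its change of 1.19 on the log2 scale missed the threshold (adjusted p = 0.0604). After median-ratio scaling both changes were below 0, at -1.39 and -0.27. RLTR4I_MM antisense was 17.9 and 21.7 in Trp53 KO against 30.9 and 26.9 in DKO (log2 change 0.55, adjusted p = 0.152).

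VL30 elements, retroviral-like elements without intact genes, differed between strands. MMVL30_Internal_sequence had sense signal of 58.8 and 32.7 in Trp53 KO against 55.2 and 44.3 in DKO, with overlapping groups (log2 change 0.17, adjusted p = 0.664). Its antisense signal rose from 8.47 and 10.2 to 22.2 and 22.3 (log2 change 1.25, SE 0.32, adjusted p = 0.0308). The related entries RLTR6B_Mm and RLTR6I_MM also rose in antisense. RLTR6B_Mm went from 2.10 in both Trp53 KO libraries to 14.6 and 18.4 in DKO, with 7.35 to 13.5 in WT and Tdg KO, so Trp53 KO was below and DKO above the other genotypes. RLTR6I_MM went from 25.6 and 21.3 to 48.2 and 50.9 (a log2 change of 1.08, adjusted p = 0.0313). Among the VL30 rises, LTRVL30 sense passed in all 3 rescaled fits. It was at 0 in Trp53 KO and in WT, at 1.24 and 1.51 in Tdg KO and at 5.50 and 1.44 in DKO. DKO library 2 lay below the floor of 2.26 for 3 fragments, so no fold is given. In all, 1 of 6 VL30 features rose in sense (16.7%) and 3 of 5 in antisense (60%), against 26.2% and 33.2% of all features. After median-ratio scaling the antisense changes of MMVL30_Internal_sequence and RLTR6I_MM were below 0, at -0.20 and -0.37, and that of RLTR6B_Mm was 1.48.

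Early transposons (ETn), which depend on proteins of MusD elements to move, differed between their internal and LTR entries. MMETN had sense signal of 18.5 and 10.1 in Trp53 KO against 4.84 and 7.99 in DKO, lower in both DKO libraries without passing (log2 change -1.13, adjusted p = 0.118). Its antisense signal was 14.7 and 7.38 in Trp53 KO against 12.2 and 15.4 in DKO. The LTR entry RLTRETN_MM was at 0 in both Trp53 KO libraries in sense and at 8.31 and 3.2 in DKO, at least 2.07-fold higher, and passed in all 3 rescaled fits. WT had 1.86 and 2.33 and Tdg KO 6.05 and 1.86, so DKO and Tdg KO overlapped. RLTRETN_MM antisense rose from 9.56 and 5.56 to 28.2 and 30.7 (a log2 change of 2.0, adjusted p = 0.0209), above the 3.69 to 8.06 of WT and Tdg KO. These 2 were the only rises among 5 ETn and MusD features on each strand (20%, against 26.2% and 33.2% of all features). Of the remaining gammaretroviral entries, named LTRIS and MERV1, 2 of 13 rose in sense (15.4%) and 4 of 15 in antisense (26.7%). Both shares were below those of all features. LTRIS2 antisense was among the rises, from 4.78 and 1.96 to 13.1 and 15.2 (a log2 change of 2.17, adjusted p = 0.0212). LTRIS_Mus sense, the best-covered entry of that group, was 38.8 and 28 in Trp53 KO against 52.6 and 39.0 in DKO (log2 change 0.46, adjusted p = 0.397).

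IAP elements held the largest share of repeat signal in Trp53 KO, and internal entries such as IAPEZI and IAPLTR1a_I_MM had lower sense signal in DKO. IAPEZI, the best-covered internal entry, had sense signal of 6322 and 4179 in Trp53 KO, 2448 and 1805 in DKO, 5205 and 2942 in WT and 3005 and 2450 in Tdg KO. The DKO libraries were the lowest 2 of 8, although DKO library 1 (2448) and Tdg KO library 2 (2450) were nearly equal. The log2 change of -1.29 (SE 0.42) did not pass (adjusted p = 0.0596), and it stayed below 0 in each rescaled fit. IAPEZI antisense was 45.5 and 43.3 in Trp53 KO against 51.5 and 65.0 in DKO (log2 change 0.38, adjusted p = 0.25). IAPLTR1a_I_MM sense was 4902 and 3114 in Trp53 KO against 1983 and 1353 in DKO, without passing (log2 change -1.25, adjusted p = 0.0704).

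LTR entries of IAP elements differed among themselves. IAPLTR1a_MM, the LTR that goes with IAPLTR1a_I_MM, had sense signal of 164 and 105 in Trp53 KO against 263 and 144 in DKO, which overlapped and did not pass (log2 change 0.57, adjusted p = 0.245), and antisense signal that rose from 26.9 and 21.7 to 58.5 and 51.0 (log2 change 1.18, SE 0.26, adjusted p = 0.0216). IAPLTR2a2_Mm rose on both strands, in antisense from 3.91 and 2.34 to 35.8 and 15.1, against 6.07 to 8.56 in WT and Tdg KO (log2 change 2.90, adjusted p = 0.0174). IAP1-MM_LTR antisense was at 0 in all 6 other B16 libraries and at 2.51 and 3.63 in DKO. These DKO values lie around the floor of 3 fragments, so no fold is given, and the entry reached the filter through DKO alone. IAPLTR3 sense was 4.60 and 2.59 in Trp53 KO against 2.61 and 4.06 in DKO, with overlapping groups (log2 change -0.08). Among the other IAP entries, IAPA_MM sense was 1186 and 977 in Trp53 KO against 517 and 497 in DKO, without passing (log2 change -1.09, adjusted p = 0.0828). These 2 entries were chosen after their values were seen. Of the 20 IAP features other than IAPEY on each strand, 1 rose in sense (5%) and 8 in antisense (40%), and the others did not pass. Among all features 26.2% rose in sense and 33.2% in antisense. In sense, 8 had both DKO libraries above and 6 below, against 63.2% and 7.12% of all sense features. With median-ratio factors, sense features gave 0 rises and 4 falls, and antisense features 2 rises and 0 falls. Summed IAP signal was 1.83-fold lower in DKO in sense and 1.69-fold higher in antisense (exact permutation p = 0.333 each).

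IAPEY elements, an IAP branch, had less summed signal than the other IAP entries, and their sum was higher in DKO. In sense the sum was 70.5 and 86.5 in Trp53 KO against 210 and 129 in DKO. In antisense it was 89.2 and 68.6 against 212 and 128. The difference between LTR and internal entries varied by pair. The log2 change of the LTR exceeded that of the internal entry by 2.53 for IAPEY4 in sense. For the IAPEY pair the excess was 0.13 in sense and 0.21 in antisense. IAPEY4_LTR sense rose from 3.58 and 5.78 to 53.5 and 21.1, against 6.27 to 11.4 in WT and Tdg KO (log2 change 2.86, SE 0.51, adjusted p = 0.0175). The internal entry IAPEY4_I had 29.4 and 33.4 in Trp53 KO against 50.1 and 30.8 in DKO (log2 change 0.33, adjusted p = 0.422). Of 11 IAPEY features 2 rose in sense (18.2%) and 1 in antisense (9.09%), below the 26.2% and 33.2% of all features. IAPEY_LTR antisense, the best-covered entry of that strand, was 21.7 and 23.0 in Trp53 KO against 69.7 and 42.5 in DKO without passing (log2 change 1.28, adjusted p = 0.0877).

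The LTR and internal entries of an element were therefore compared within each library, a ratio from which a scale factor of the whole library cancels except through the added 0.1. This measure was chosen after the IAP values were seen. Entries were paired by the shared stem of their names, and 16 sense and 20 antisense pairs had a mean signal of at least 1 at both entries. The log2 ratio of LTR over internal signal was higher in DKO than in Trp53 KO for 15 of 16 sense pairs and 18 of 20 antisense pairs. The median difference was 1.01 in sense and 0.90 in antisense. Both DKO libraries lay above both Trp53 KO libraries in 6 sense pairs (37.5%) and 8 antisense pairs (40%), and below in 1 (6.25%) and 0. They were the highest of 8 in only 3 of 16 sense and 2 of 20 antisense pairs. For Tdg KO against WT the ratio was above in 3 and below in 4 sense pairs, and above in 3 and below in 3 antisense pairs. For IAPLTR1a in sense the log2 ratio was -4.90 and -4.89 in Trp53 KO, -2.91 and -3.23 in DKO, -5.24 and -4.01 in WT and -3.91 and -3.79 in Tdg KO, and DKO was the highest of 8. For IAPEY4 in sense it was -3.00 and -2.51 in Trp53 KO against 0.09 and -0.55 in DKO, also the highest of 8. For RLTR4 in sense it was -5.29 and -4.94 in Trp53 KO against -4.08 and -3.92 in DKO, within the range of WT and Tdg KO.

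The exception in sense was ORR1B1, whose ratio was 3.33 and 5.44 in Trp53 KO against 2.49 and 1.65 in DKO. In ORR1B1 the internal entry was the weaker one, at 0.60 and 0 in Trp53 KO against 4.06 and 4.09 in DKO. The coverage of the paired entries moved with this measure. The LTR entries had a median log2 change of 1.61 in sense and 2.03 in antisense, the internal entries 0.58 and 0.74, and weakly covered features had larger changes across all repeats. The part of coverage level in the difference was not tested. With a pseudocount of 1 the median differences were 0.78 and 0.93.

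**Figure D4:**
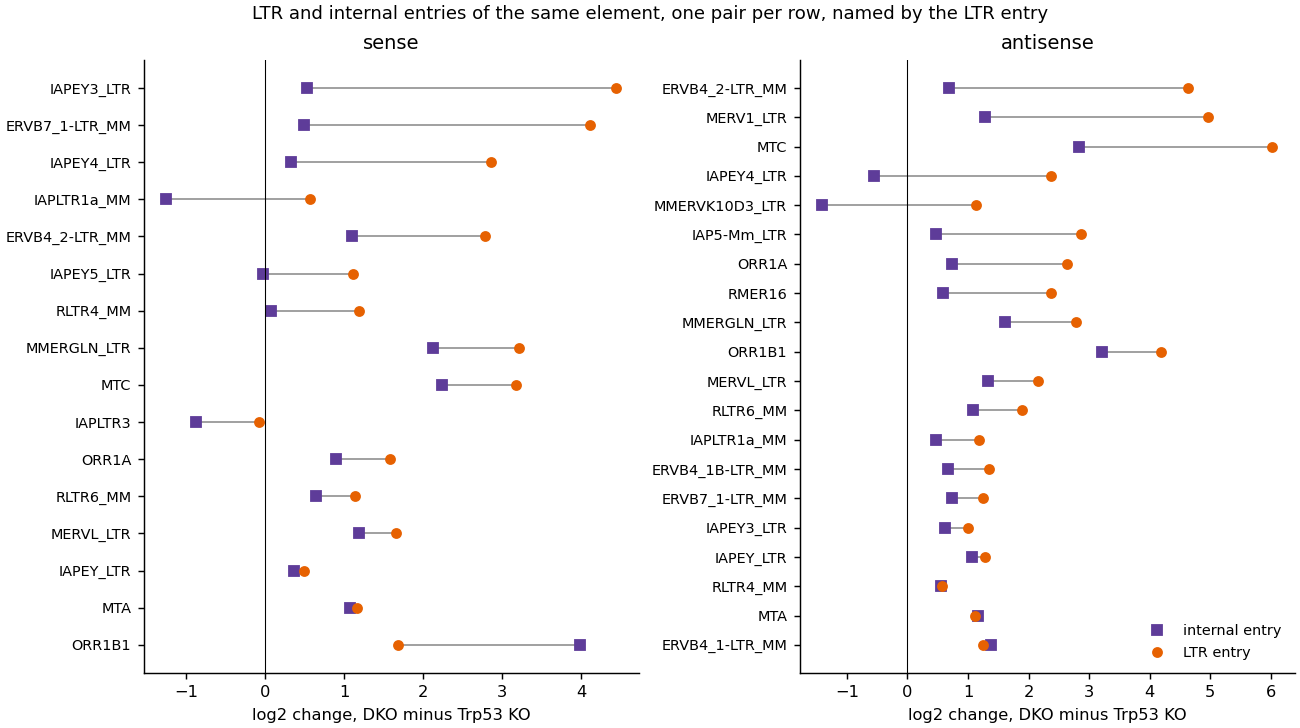
Log2 change (DKO minus Trp53 KO) of the LTR entry (orange circle) and the internal entry (purple square) of the same element, 1 pair per row, for 16 sense and 20 antisense pairs. The circle lies to the right of the square in 15 sense and 18 antisense pairs.

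Young LINE-1 elements had smaller median changes than the B1 and B2 SINEs, and a larger median in sense than in antisense. L1MdF_IV, the best-covered young LINE-1 entry, had sense signal of 50.8 and 38.3 in Trp53 KO, 101 and 105 in DKO, 46.2 and 98.6 in WT and 95.7 and 56.5 in Tdg KO (log2 change 1.22, adjusted p = 0.0715). Its antisense signal was 120 and 124 in Trp53 KO against 145 and 210 in DKO (log2 change 0.51, adjusted p = 0.165). Both DKO libraries lay above both Trp53 KO libraries for all 28 young LINE-1 features on each strand, against 63.2% and 75% of all features. As with B1, the entries may share reads and do not count as separate measurements. Only 2 rose on each strand (7.14%, against 26.2% and 33.2% of all features). They were L1MdA_III and L1MdA_I in sense, and L1Md_F_5end and L1Md_Gf_5end in antisense. L1MdA_III sense went from 41.8 and 30.3 to 114 and 111 (log2 change 1.66, SE 0.44, adjusted p = 0.0345). L1Md_F_5end antisense went from 19.6 in both Trp53 KO libraries to 50.6 and 69.3 (log2 change 1.59, adjusted p = 0.0209). The median log2 change was 1.35 in sense and 0.59 in antisense, both below the medians of all features of those strands (1.61 and 1.78), and after median-ratio scaling both were below 0, at -0.11 and -0.87.

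Summed young LINE-1 signal went from 963 and 681 to 2065 and 2120 in sense and from 2209 and 2155 to 2813 and 3926 in antisense. The antisense part of LINE-1 signal, young and older, was 69.2% and 77.6% in Trp53 KO against 59.1% and 66.7% in DKO, again opposite to repeats as a whole. DKO library 2 was higher than library 1 at all 28 young LINE-1 features in antisense (median log2 difference 0.48), whereas library 1 was higher at most SINEs. Among older LINE-1 entries, 5 of 38 rose in sense (13.2%) and 15 of 43 in antisense (34.9%). These shares were below the 26.2% of all sense features and near the 33.2% of all antisense features. Lx2_3end rose on both strands, in sense from 20.6 and 12.4 to 47.3 and 54.4 and in antisense from 33.4 and 52.4 to 90.1 and 95.2 (log2 changes 1.66 and 1.15). L1_Mus1_3end antisense, the best-covered of them, was 154 and 210 in Trp53 KO against 185 and 198 in DKO (log2 change 0.09, adjusted p = 0.784). In sense it was 54.4 and 40.9 in Trp53 KO against 130 and 85.8 in DKO, with a log2 change of 1.16 and an adjusted p of 0.0685.

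MaLR elements, an old group of LTR sequences, had more rises in antisense than in sense. MTB antisense signal was 74.6 and 72.4 in Trp53 KO, 269 and 165 in DKO, and 98.4 to 111 in WT and Tdg KO (log2 change 1.52, SE 0.29, adjusted p = 0.0193). ORR1B1 antisense was 2.30 and 2.60 in Trp53 KO, 79.6 and 27.1 in DKO, and 9.46 to 16.6 in WT and Tdg KO, so Trp53 KO was lowest and DKO highest. Its log2 change of 4.19 (SE 0.57, adjusted p = 0.0154) passed in all 3 rescaled fits. MTC antisense was 0 and 6.97 in Trp53 KO, 85.8 and 34.8 in DKO, and 5.6 to 11 in WT and Tdg KO (log2 change 6.02, SE 1.8, adjusted p = 0.0474). The internal entry MTAI, the best-covered of the list, did not pass on either strand (log2 changes 1.07 and 1.16, adjusted p = 0.0648 and 0.057). Of 23 MaLR features in sense 9 rose, and of 24 in antisense 16 rose, 39.1% and 66.7% against 26.2% and 33.2% of all features, with median log2 changes of 1.75 and 2.52, or 1.40 and 1.79 with entries at 0 in a group at their bounds. Median centring took the sense median below 0 (-0.30) but not the antisense median (0.47). All 24 MaLR features in antisense were higher in DKO library 1 than in library 2, and 4 rose without library 1. Summed MaLR signal was 2.51-fold higher in sense and 2.80-fold in antisense.

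MERVL and its MT2 LTRs, known for a burst of expression in the early embryo, rose at 2 of 8 sense features (25%) and 2 of 10 antisense features (20%), near or below the 26.2% and 33.2% of all features. MERVL sense signal was 6.16 and 4.35 in Trp53 KO against 13 and 10.8 in DKO (log2 change 1.18, adjusted p = 0.0502), and its antisense signal was 3.05 and 3.65 in Trp53 KO against 8.57 and 8.50 in DKO (1.33, adjusted p = 0.0493). MERVL_LTR antisense rose from 16.2 and 5.22 to 49.0 and 35.1 (2.16, adjusted p = 0.0461). MT2B2_LTR sense rose from 12.8 and 19.0 to 39.5 and 46.4, but its change of 1.45 was 0.00069 after median-ratio scaling. Both DKO libraries lay above both Trp53 KO libraries at all 8 features in sense and 8 of 10 in antisense, against 63.2% and 75% of all features. MT2B2_LTR antisense was 30.4 and 42.5 in Trp53 KO against 62.4 and 67.3 in DKO and did not pass (log2 change 0.85, adjusted p = 0.0626). RatERVL, an entry outside the lists, rose in antisense from 4.85 and 5.20 to 11.3 and 13.2 (a log2 change of 1.26, adjusted p = 0.0323).

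Betaretroviral ERVB elements had smaller median changes than the MaLR list. MMERVK10C had sense signal of 25.4 and 36.0 in Trp53 KO against 28 and 11.5 in DKO (log2 change -0.75, adjusted p = 0.225), and antisense signal of 29.2 and 22.6 in Trp53 KO against 29.1 and 31.7 in DKO (0.24, adjusted p = 0.469). ERVB4_2B-LTR_MM sense was at 0 in Trp53 KO and at 3.26 and 2.39 in DKO, at least 1.60-fold higher, and passed in all 3 rescaled fits. Of 22 features in sense 2 rose (9.09%), and of 27 in antisense 4 rose (14.8%), both below the shares of all features. The medians were 1.19 and 0.92, which became -0.10 and -0.29 with median-ratio factors.

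The largest list held the other LTR entries of the RLTR, RMER and BGLII kinds, most of them weakly covered. Of its 155 sense features 31 rose (20%) and of its 177 antisense features 39 rose (22.0%), below the 26.2% and 33.2% of all features. Trp53 KO was at 0 in 66 and 68 of these, and the medians of 1.90 and 1.99 became 0.54 and 0.74 with such features at their bounds. BGLII_LTR antisense, the best covered, rose from 57.1 and 32.5 to 206 and 132 (log2 change 1.93, SE 0.49, adjusted p = 0.0299). RLTR13B3, the best-covered entry in sense, was 20.6 and 24.0 in Trp53 KO against 47.9 and 30.9 in DKO and did not pass (log2 change 0.79, adjusted p = 0.12). BGLII sense was at 0 in all 6 other B16 libraries and at 3.22 and 4.81 in DKO, at least 1.46-fold higher than Trp53 KO. It reached the filter through DKO alone, so its call had to follow. RMER17B sense was at 0 in Trp53 KO and WT, at 1.33 and 0.98 in Tdg KO and at 3.24 and 1.48 in DKO, at least 2.44-fold higher than Trp53 KO. RMER17B sense passed in all 3 rescaled fits, and so did the DNA transposon URR1 in sense. URR1 was at 0 in Trp53 KO, at 14.3 and 4.13 in DKO, at 6.79 and 3.22 in Tdg KO and at 0.65 and 4.35 in WT, so only DKO library 1 lay above all libraries of WT and Tdg KO. URR1 antisense was 0 and 1.27 in Trp53 KO against 10.8 and 4.5 in DKO and did not pass (adjusted p = 0.132). Small RNA and older SINE entries were at the limit of detection. 4.5SRNA sense had signal in DKO library 1 alone (3.04), BC1_Ma antisense in DKO library 2 alone (2.48), and RSINE2 antisense in DKO library 1 (2.30) and Tdg KO library 1 (1.86). IMPB_01 sense, an entry outside the lists, was 832 in DKO library 1 and 222 in Tdg KO library 1 and between 0.12 and 2.70 in the other 6 libraries, and it did not pass (log2 change 5.46, SE 3.70, adjusted p = 0.25).

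Centromeric satellites differed by entry. GSAT_MM, the major satellite, rose on both strands. In sense it was 3.81 and 0 in Trp53 KO, 186 and 223 in DKO, 0 and 5.08 in WT and 5.04 and 1.25 in Tdg KO, so that both DKO libraries stood far above the other 6. Its log2 change of 8.35 (SE 2.27, adjusted p = 0.0362) was the highest of all 1246 features, against a smaller, 107-fold ratio of means. It did not pass in the rescaled fits, at 7.31 with median-ratio factors and 6.30 with median centring. GSAT_MM had antisense signal of 16.5 and 18.3 in Trp53 KO, 585 and 260 in DKO, 32.4 and 47.5 in WT and 55.8 and 50.7 in Tdg KO (log2 change 4.48, SE 0.42, adjusted p = 0.0112), and the rise passed in all 3 rescaled fits. SATMIN, the minor satellite, fell in sense from 343 and 132 to 12.3 and 24.3, where WT and Tdg KO ranged from 196 to 382. SATMIN was the 1 fall among repeats. Antisense made up 14.9% and 28.6% of satellite signal in Trp53 KO, 77.2% and 61.1% in DKO and 28.4% to 41.3% in WT and Tdg KO. This share pools entries, with SATMIN sense signal falling and GSAT_MM rising, and does not describe a turn to antisense within an entry. GSAT_MM had more antisense than sense signal in both genotypes, and its log2 change was larger in sense (8.35) than in antisense (4.48). The 8 satellite features in sense had 1 rise and 1 fall, and the 7 in antisense 3 rises and 0 falls. The rises make up 12.5% and 42.9% of these, against 26.2% and 33.2% of all features.

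At piRNA loci the direction depended on the locus. Intergenic loci had 61 rises and 2 falls among 126 sense features and 48 rises and 2 falls among 121 antisense features. Genic loci had 22 rises and 7 falls among 110 sense features and 29 rises and 0 falls among 44 antisense features. The rises make up 48.4%, 39.7%, 20% and 65.9% of these features, against 26.2% of all sense and 33.2% of all antisense features. Overlapping loci may share reads, so these features do not count as separate measurements. The other 7 falls were the overlapping Ip6k1 loci, which were at 0 in both DKO libraries and reached the filter through Trp53 KO alone, so their calls had to follow. The best covered of them, pi-Ip6k1.1 sense, was 0.54 and 0.40 in Trp53 KO and 0.066 to 0.13 in WT and Tdg KO. Rising loci were mostly weakly covered. 5-qG2-2301.1 antisense was 0.78 and 0.79 in Trp53 KO, 16.5 and 10.4 in DKO, and 1.39 to 3.12 in WT and Tdg KO. It was the one piRNA feature whose rise passed in all 3 rescaled fits (log2 change 3.90, SE 0.52, adjusted p = 0.0154). pi-Ipmk.2, chosen after its values were seen, rose on both strands, in sense from 0.97 and 1.31 to 29.3 and 7.59. Among better-covered loci 10-qB5.1-221.1 rose on both strands, in sense from 15.1 and 15.2 to 29.4 and 27.4 and in antisense from 9.19 and 9.22 to 35.2 and 23.8 (log2 changes 0.90 and 1.64). At intergenic loci in sense, 111 of 126 features were higher in DKO library 1 than in library 2, and 31 rose without library 1.

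The falls at piRNA loci were also counted by coverage, without the repeat SATMIN. At a mean signal of 0.1 to 1 there were 9, at 1 to 10 there was 1, at 10 to 100 there were 3, and at 100 or more there were 5. Of the 9, 8 reached the filter through Trp53 KO alone, 7 of them Ip6k1 loci, so these calls had to follow. 14-qA3-284.2 sense was 960 and 607 in Trp53 KO, 276 and 215 in DKO, 823 and 382 in WT and 370 and 286 in Tdg KO (log2 change -1.65, SE 0.44, adjusted p = 0.0356). 10-qC1-2617.1 antisense was 875 and 566 in Trp53 KO against 256 and 204 in DKO (log2 change -1.62, adjusted p = 0.0355). pi-Phf20.2 sense was 909 and 616 in Trp53 KO, 278 and 245 in DKO, 803 and 419 in WT and 429 and 364 in Tdg KO (log2 change -1.52, SE 0.38, adjusted p = 0.0299). At all 3 the DKO libraries were the lowest 2 of 8, followed by the Tdg KO libraries and WT library 2. On the other strand pi-Phf20.2 rose, from 8.44 and 7.19 to 24.6 and 16.7 (a log2 change of 1.37, adjusted p = 0.0257). Falls with a mean of at least 10 also included 13-qA5-464.3 sense, from 697 and 490 to 245 and 175, 10-qC1-2617.2 antisense, a locus named with the same number as 10-qC1-2617.1, from 716 and 463 to 216 and 173, pi-Klhl11.1 sense, from 92.2 and 68.6 to 32.5 and 37.6, and pi-Cbl.1 sense, from 74.2 and 67.5 to 33.0 and 29.4. The like-numbered 17-qA3.3-26735.2 and 17-qA3.3-26735.3 in antisense, both with a log2 change of -1.30 (adjusted p = 0.0604), and pi-D10Wsu102e.2 antisense (-1.23, adjusted p = 0.064) were lower in both DKO libraries without passing. pi-Rab11fip4.1 sense fell from 20 and 15.6 to 5.05 and 3.99, and pi-Eif4ebp2.2 sense from 4.99 and 4.84 to 0.57 and 1.18. pi-Rplp1.1, the best-covered locus, was 2100 and 2619 in Trp53 KO against 4720 and 1158 in DKO (log2 change -0.0045), so the DKO libraries lay on either side of Trp53 KO.

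Several of these loci ran parallel to IAPEZI across libraries. Over the 8 B16 libraries, 12 of 321 features with a mean signal of at least 10 had a Pearson correlation of at least 0.95 with IAPEZI sense on the log2 scale, a likeness measure chosen after the values were seen. Of the 12, 10 were piRNA locus features. The highest values were 0.996 for 14-qA3-284.2 sense, 0.995 for IAPLTR1a_I_MM sense and 0.994 for 10-qC1-2617.1 antisense. The points share libraries and their depth, overlapping loci share reads, and a locus that holds an IAP copy can share reads with IAPEZI, so these correlations are a description. The log2 changes of the 10 ranged from -1.65 to -1.18 (median -1.40). Since they were chosen for following IAPEZI sense, which is lower in DKO, this direction was fixed by the choice.

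**Figure D5:**
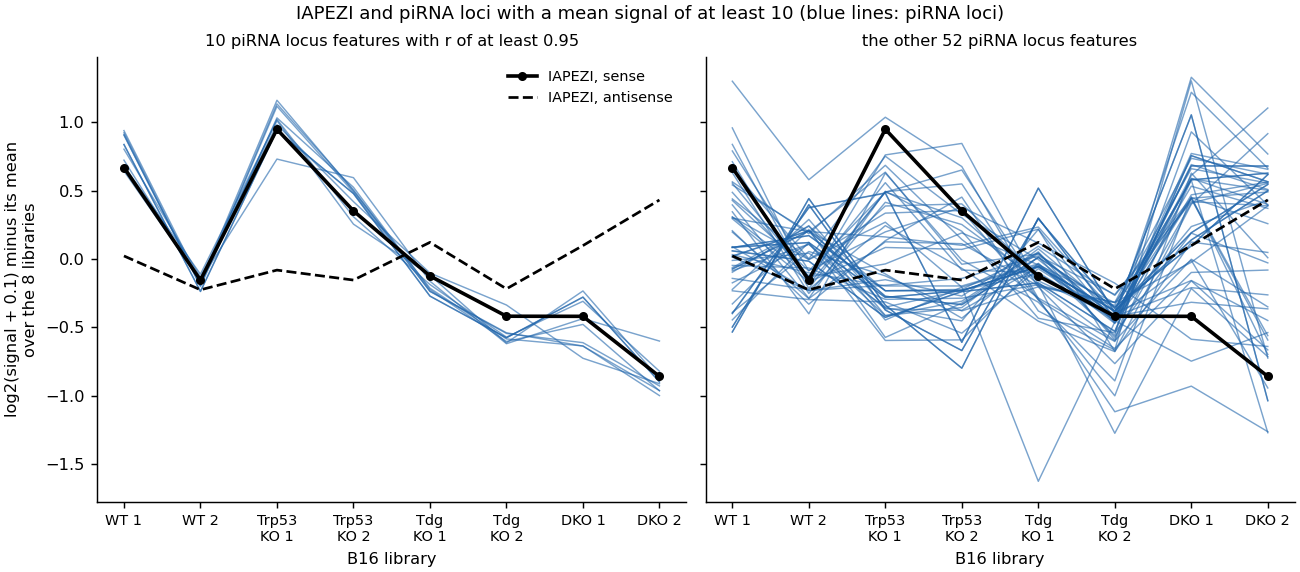
Log2 signal of piRNA locus features with a mean signal of at least 10, each minus its mean over the 8 B16 libraries (blue lines; vertical axis in log2 units), with IAPEZI sense (black, solid) and antisense (black, dashed). The 10 features with a correlation of at least 0.95, chosen for following the solid line, go down from the Trp53 KO to the DKO libraries with it, and the other 52 are drawn for comparison.

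Whether the difference between DKO and Trp53 KO differed from that between Tdg KO and WT was tested as an interaction in the same fit. By limma 0 features passed (0%), with a smallest adjusted p of 0.0662 and 427 features higher and 10 lower at an unadjusted p under 0.05. The median interaction was 1.66 and the median log2 change of Tdg KO against WT -0.05. Without adjustment, 8 of 10 B1 features were higher in sense and 10 of 11 in antisense. For B2 the counts were 11 of 13 in sense and 7 of 13 in antisense. Among all features they were 194 of 646 in sense and 233 of 600 in antisense. The B1 and B2 entries may share reads and do not count as separate measurements. Without DKO library 1 in the fit 61 features were higher and 8 lower with adjustment, and without DKO library 2 the counts were 289 and 8. With 1 DKO library left, its spread is assumed to equal that of the other groups, so these counts rest on a single library.

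In KP cells, which come from another table, 335 of the 368 rises had signal. All 3 Tdg KO libraries lay above both WT libraries at 83 of them (24.8%) and below at 4, against 18.7% and 1.69% of the 1065 tested features with KP signal. Of the 17 falls with KP signal, 0 lay above and 0 below. In sense 6 of 10 B1 and 4 of 13 B2 features lay above, and in antisense 0 of 11 and 0 of 13. KP values were not rescaled. Summed sense repeat signal was 4115 and 4144 in KP WT against 10396, 8108 and 9893 in KP Tdg KO. In antisense it was 1112 and 1421 against 2391, 2107 and 1993. The part of depth in these counts was not tested. IAPEZI sense signal was far lower in KP, at 28.7 and 51.3 in WT and 9.80, 51.1 and 58.3 in Tdg KO, and its groups overlapped.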

How the data were processed

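The authors deposited 1 table per cell line with a mean signal per repeat or piRNA locus, library and strand, and gave antisense signal with a minus sign, of which the absolute value was used. Per the labels' protocols, rRNA was depleted and libraries were directional. HISAT2, DESeq2 and mm10 appear in the submitters' processing notes without roles or versions, and how reads with several matches were counted is not given in the sources used here. Within 657 of 661 entries with at least 6 values, the deposited signal was in whole multiples of 1 over a recovered length, the smallest step being about 299 bases, so the values are read as coverage not scaled to library size. No source used here gives read totals.

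Of 2035 rows, 895 had signal and 889 remained after 6 duplicates. Features with a mean of at least 0.1 over the 8 B16 libraries were fitted on log2(signal + 0.1) with limma 3.58.1 (lmFit, eBayes with trend, 4 residual degrees of freedom) in R 4.3.3, with group means and Benjamini-Hochberg adjustment at 0.05 over all 1246, and the steps were tested on simulated data. Median-ratio factors came from features with a mean of at least 1. Lower bounds use a floor of 3 fragments per library, which covers counting error only. Alternatives in scaling, pseudocount, filter, libraries and piRNA loci are given in the closing section.

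The comparison, lists and tests were chosen with earlier results of these data known, and name patterns of the lists were corrected once the entry names were seen. Features were named as the best covered of each list and strand, as the 10 best-covered rises and 10 best-covered falls that passed in all scalings without overlap, and as the 10 largest rises and 10 largest falls at a mean of at least 10. Features outside these were chosen after their values were seen. No consensus sequences were used here.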

Additional observations from a re-analysis of the deposited data

How the results depend on the processing

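Counts of calls moved most with the scaling of the libraries and with the libraries fitted. As deposited, 368 features rose and 19 fell. Median-ratio scaling gave 77 and 49, median centring 26 and 110, quantile normalization 38 and 52, and scaling to summed repeat signal 228 and 36, and the share of features with a change above 0 went from 90.3% to 59.6%, 40.8%, 46.0% and 80.3%. Without the piRNA loci 134 rose and 1 fell, and with only DKO and Trp53 KO in the fit 0 and 0 (548 and 32 at an unadjusted p under 0.05). Leaving out 1 library at a time gave 8 to 406 rises and 0 to 26 falls, with 11 falls without either Tdg KO library. Pseudocounts of 0.01 and 1, no filter, a mean signal of at least 1 and a robust fit stayed within 1.5 times of both counts.

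The interaction, with 0 calls as reported, had 7 higher features with a pseudocount of 0.01, 1 with a mean signal of at least 1, and 0 to 289 higher and 0 to 8 lower when a library was left out, and it cannot be fitted with 2 genotypes alone. Replicate numbers did not pair the libraries, since the correlations of deviations between same-numbered libraries of different genotypes ran from -0.013 to 0.18. With the replicate number as a block 298 features rose and 24 fell. For the LTR over internal comparison, alternatives added after seeing the data gave 0.78 to 1.12 in sense and 0.73 to 1.15 in antisense.

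Of 2192 alternatives for the 111 named features, 1546 kept direction and call, 444 kept direction and lost the call, 77 gained one and 125 changed sign. The sign changes nearly all followed rescaling. Under median centring the log2 changes were in sense 10-qB5.1-221.1 -1.15, IAPEY4_I -1.72, IAPLTR1a_MM -1.48, L1MdA_I -0.45, L1MdA_III -0.39, L1MdF_IV -0.83, L1_Mus1_3end -0.89, LTRIS_Mus -1.59, Lx2_3end -0.39, MERVL -0.87, MMVL30_Internal_sequence -1.88, MT2B2_LTR -0.60, MTAI -0.98, P7SL_Cpo -1.79, RLTR13B3 -1.27, RLTR4I_MM -1.98, RLTR4_MM -0.86, and in antisense 10-qB5.1-221.1 -0.41, BGLII_LTR -0.12, IAPEY_LTR -0.77, IAPEZI -1.67, IAPLTR1a_MM -0.88, L1MdF_IV -1.54, L1Md_F_5end -0.46, L1Md_Gf_5end -0.40, L1_Mus1_3end -1.96, Lx2_3end -0.91, MERVL -0.72, MMERGLN_I -0.44, MMERVK10C -1.81, MMETN -1.66, MMVL30_Internal_sequence -0.80, MT2B2_LTR -1.20, MTAI -0.89, MTB -0.53, P7SL_Cpo -1.67, RLTR1B_MM -0.87, RLTR4I_MM -1.50, RLTR6I_MM -0.97, RLTRETN_MM -0.054, RatERVL -0.79, pi-Phf20.2 -0.68. Under median-ratio scaling they were in sense 10-qB5.1-221.1 -0.55, IAPEY4_I -1.13, IAPLTR1a_MM -0.89, L1MdF_IV -0.23, L1_Mus1_3end -0.30, LTRIS_Mus -1.0, MERVL -0.26, MMVL30_Internal_sequence -1.28, MTAI -0.39, P7SL_Cpo -1.19, RLTR13B3 -0.67, RLTR4I_MM -1.39, RLTR4_MM -0.27, and in antisense IAPEY_LTR -0.17, IAPEZI -1.07, IAPLTR1a_MM -0.28, L1MdF_IV -0.94, L1_Mus1_3end -1.37, Lx2_3end -0.31, MERVL -0.10, MMERVK10C -1.21, MMETN -1.05, MMVL30_Internal_sequence -0.20, MT2B2_LTR -0.61, MTAI -0.30, P7SL_Cpo -1.07, RLTR1B_MM -0.27, RLTR4I_MM -0.90, RLTR6I_MM -0.37, RatERVL -0.17, pi-Phf20.2 -0.077. Under quantile normalization they were in sense 10-qB5.1-221.1 -0.45, IAPEY4_I -1.17, IAPLTR1a_MM -0.62, L1MdF_IV -0.15, L1_Mus1_3end -0.20, LTRIS_Mus -0.93, MERVL -0.17, MMVL30_Internal_sequence -1.22, RLTR13B3 -0.66, pi-Rplp1.1 0.34, and in antisense IAPEY_LTR -0.16, IAPEZI -1.02, IAPLTR1a_MM -0.18, L1MdF_IV -0.35, L1_Mus1_3end -0.90, Lx2_3end -0.21, MERVL -0.24, MMERVK10C -1.15, MMETN -1.0, MMVL30_Internal_sequence -0.045, MT2B2_LTR -0.58, P7SL_Cpo -1.02, RLTR1B_MM -0.14, RLTR4I_MM -0.79, RLTR6I_MM -0.34, RatERVL -0.18. Under scaling to summed repeat signal they were in sense IAPEY4_I -0.31, IAPLTR1a_MM -0.069, LTRIS_Mus -0.18, MMVL30_Internal_sequence -0.46, P7SL_Cpo -0.37, RLTR4I_MM -0.56, and in antisense IAPEZI -0.25, L1MdF_IV -0.12, L1_Mus1_3end -0.55, MMERVK10C -0.40, MMETN -0.24, P7SL_Cpo -0.26, RLTR4I_MM -0.086.

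With single libraries left out, the ranges that crossed 0 were -1.0 to 0.19 for the sum over piRNA loci in sense, -0.023 to 0.68 for IAPEY4_I sense, -0.49 to 0.32 for IAPLTR3 sense, -0.13 to 0.31 for L1_Mus1_3end antisense, -0.099 to 0.88 for MMETN antisense, -0.25 to 0.60 for MMVL30_Internal_sequence sense, -2.45 to 3.2 for P7SL_Cpo antisense, -1.02 to 1.55 for P7SL_Cpo sense, -0.37 to 0.52 for RLTR4I_MM sense, -1.02 to 1.01 for pi-Rplp1.1 sense. The cause of these changes was not tested. Weakly covered features limit the depth, since 1 fragment is the smallest value above 0 and 227 features were at 0 in both Trp53 KO libraries.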
